A study of Danio rerio with 24 samples.

Results

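Photoreceptor and visual cycle genes were followed through 24 RNA-Seq libraries of whole zebrafish larvae. They were a list of 50 symbols, taken by gene symbol, of which 48 matched a gene among the 26878 genes of the deposited tables. *gngt1* and *pde6h* were not matched and are not analysed here. The 48 genes were 11 rod genes, 23 cone genes, 10 genes that both photoreceptor types use or that were not assigned to either, and 4 genes of the visual cycle. The list was not chosen by a threshold on these values, but it was chosen with earlier results of these data known.

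The study asked what constitutively active Fyn kinase does in neurons. It compared 3 genotypes at 3 and 5 days post fertilization (dpf), with 4 biological replicates in each of the 6 groups, each a pool of whole larvae. WT larvae carried no transgene. *elavl3:Gal4* larvae (genotype huC:gal4:gcry:RFP, huC being the older name of *elavl3*) carried a pan-neuronal driver of the yeast transcription factor Gal4 and a red fluorescent reporter under a lens crystallin promoter. The model larvae (here fynY531F larvae) carried the same driver and, as UAS:fynY531F:gcry:GFP, a UAS transgene for Fyn with its inhibitory tyrosine replaced and a second, green lens reporter. The driver and its lens reporter were thus shared by the last 2 genotypes, and the WT control lacked both. The UAS transgene came from a single insertion line, so an effect of its insertion site and one of Fyn cannot be told apart. The larvae were raised on a light and dark cycle, and the sources used here do not state the hour of collection. Part of the larvae were stored frozen and part were extracted on the same day, without a record of which.

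Rods serve dim light and cones serve daylight and colour. In both, light changes an opsin, the opsin activates a transducin G protein, transducin activates the phosphodiesterase PDE6, and the fall in cyclic GMP closes cyclic nucleotide-gated channels. Kinases of the GRK family, arrestins, RGS9 and guanylate cyclase activators then shut the response off. Zebrafish have UV, blue, green and red cones, each with its own opsin, and most of these genes exist as separate rod and cone copies. The visual cycle remakes 11-cis retinal, the light-sensitive part of every opsin, in the pigment epithelium and, for cones, in Müller glia. Cones are functional before rods in the larval retina. *elavl3* marks postmitotic neurons, and in the retina its protein is known from ganglion and amacrine cells.

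Total counts per library lay between 11386498 and 30549128. *fyna*, from which the transgene was made, had medians of 85.9, 73.7 and 897 CPM at 3 dpf in WT, *elavl3:Gal4* and fynY531F larvae, and of 87.4, 90.4 and 210.5 CPM at 5 dpf, and every fynY531F library lay above every library of the other groups, as the labels have it. CPM are counts per 1000000 counts of a library, scaled with TMM factors over all 24 libraries. Replicate 3 of *elavl3:Gal4* at 5 dpf stood apart, with a median r of 0.870 with its group against at least 0.983 for every other library. Most counts of members called with this group, and the values of some genes, are given with and without it. Other values of its group include it. TMM factors raised its CPM, for *rho* from 964 with library totals alone to 1613. This library also had the fewest genes with a count, 22443. Within its group *elavl3* lay between 78.1 and 518 CPM (median 445) and summed lens genes between 9742 and 27880.5 CPM (median 11810). Which library held each of these extremes is not shown here. Of 41 members with a mean of at least 1 CPM, 36 were lowest in replicate 2 of WT at 3 dpf, and 33 were lowest in replicate 1 and 33 highest in replicate 3 of *elavl3:Gal4* at 3 dpf. Whole libraries thus stood high or low for these genes together. In RNA from whole larvae, fewer photoreceptors and less mRNA per photoreceptor cannot be told apart. Groups were compared with edgeR's quasi-likelihood test and Benjamini-Hochberg adjustment over all genes tested, and calls were made at an adjusted p under 0.05.

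The opsins of rods and UV cones were the most abundant members once counts were divided by gene length. In WT larvae at 5 dpf, *rho* (rhodopsin, the rod opsin) stood at 789 ± 87.1 CPM per kb (SD, n = 4) and *opn1sw1* (the UV cone opsin) at 646 ± 54.3 CPM per kb. Next came *gngt2b* (cone transducin gamma) at 424 ± 20.6, *opn1mw1* (a green cone opsin) at 354 ± 27.9, *gnat2* (cone transducin alpha) at 169.6 ± 13.5, *gnb3b* (cone transducin beta) at 126 ± 8.0 and *opn1lw2* (a red cone opsin) at 107 ± 4.40 CPM per kb. Neighbours in this order did not overlap between libraries, apart from *rho* and *opn1sw1*. *gnat1* (rod transducin alpha) stood lower, at 42.6 ± 4.72, and the blue cone opsin *opn1sw2* at 32.0 ± 3.51 CPM per kb. At 3 dpf the first pair stood in the other order, with *opn1sw1* at 531 ± 146 and *rho* at 383 ± 106 CPM per kb, and there *opn1sw1*, *rho*, *gngt2b* and *opn1mw1* each overlapped the next.

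Of the 9 opsin genes, 3 were nearly silent. *opn1mw3* and *opn1mw4*, which lie in tandem with *opn1mw1* and *opn1mw2* on chromosome 6 (from 41181869 to 41202554, GRCz11), had 19 and 9 counts over all 24 libraries. *opn1lw1*, next to *opn1lw2* on chromosome 11 (from 25477643 to 25483206), had 30 counts. These neighbours are close copies, so reads may have been split or lost between them, and the sources used here do not state how shared reads were counted. *cngb3.1* (a cone channel subunit, 7 counts), *guca1d* (a guanylate cyclase activator, 39 counts) and *rcvrn2* (a recoverin, 31 counts) were as scarce. None of these 6 genes passed the filter on low counts in any comparison, so none was tested in the main fits. With no filter, *guca1d* was called higher at 5 than at 3 dpf in WT larvae, as were 23% of all genes. The other 42 members passed that filter in at least 1 comparison. Of those, *pde6ga* (802 counts), *nr2e3* (443 counts) and *guca1a* (295 counts) passed it in some comparisons and not in others.

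FynY531F larvae had less mRNA of most photoreceptor genes than WT larvae at both ages. At 3 dpf, 33 of 41 members tested were lower and 1 was higher, where 14.8% of all genes were called lower and 12.7% higher. The members' median log2 fold change was -1.26, against -0.01 over all genes tested. At 5 dpf, 32 of 42 were lower and 1 was higher, against 14.3% and 14.5% of all genes, with a median of -0.80. When all 6 groups shared one fit, 19 were lower and 0 higher at 5 dpf, against 8.11% and 8.64% of all genes. In 32 of 41 members at 3 dpf and 30 of 42 at 5 dpf, every fynY531F library lay below every WT library, as in 14.6% and 14.9% of all genes. The libraries of both ages are separate, and 27 members were lower at both, which is 81.8% of those lower at 3 dpf and 84.4% of those lower at 5 dpf. All 8 rod genes that were lower at 3 dpf were lower again at 5 dpf, and so were 13 of 17 cone genes. The matching shares over all genes are not given here, so whether members stayed lower more often than other genes is not shown.

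Against *elavl3:Gal4* larvae, which share the driver, members were called lower at both ages, in numbers that depended on the fit. At 3 dpf, 17 of 41 were lower and 1 was higher, with 9.73% and 8.88% of all genes called in those directions and a member median of -0.65. At 5 dpf, 7 of 41 were lower and 0 were higher, where 2.6% and 2% of all genes were, with a median of -0.76. Every fynY531F library lay below every *elavl3:Gal4* library in 3 of 41 members at 3 dpf and 23 of 41 at 5 dpf, against 12.9% and 10.4% of all genes. The 5 dpf count rests on CPM scaled with TMM factors, which raised *elavl3:Gal4* replicate 3. With library totals alone, *opn1sw2* of that library was 18.2 CPM, within the fynY531F range of 15.1 to 27.3 CPM. So was *grk1a*, at 8.87 CPM within a range of 6.77 to 9.76 CPM. *pde6b* (6.51 CPM) and *pde6gb* (12.9 CPM) of that library then lay below every fynY531F library. *pde6ga* overlapped through another library, with *elavl3:Gal4* replicate 2 at 3.75 CPM and fynY531F replicate 4 at 4.04 CPM. The 5 dpf count was thus lower with library totals alone. Both sets of comparisons share the fynY531F libraries, so they are not independent of each other. With all 6 groups in one fit, 8 members were called lower at 3 dpf, against 3.48% of all genes, and 24 at 5 dpf, against 13.7%, which at 5 dpf is more than the 19 called against WT in that fit. DESeq2 called 20 lower at 5 dpf, against 5.93% of all genes. The counts against *elavl3:Gal4* also rested on single libraries. At 3 dpf the 17 lower and 1 higher members became 28 and 1 without *elavl3:Gal4* replicate 1, against 8.56% and 7.52% of all genes, and between 8 and 11 members were called without *elavl3:Gal4* replicate 2, 3 or 4 or fynY531F replicate 2, 3 or 4. Without *elavl3:Gal4* replicate 3, 9 of 41 were lower, against 9.19% of all genes. At 5 dpf the 7 lower members became 21 without *elavl3:Gal4* replicate 3, the library that stands apart, when 11% of all genes were called lower. They became 3 without *elavl3:Gal4* replicate 1 and between 1 and 4 without any 1 of the fynY531F replicates. The shares of all genes called in these last fits are not given here, so whether the members lost more calls than other genes is not shown.

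**Figure D1:**
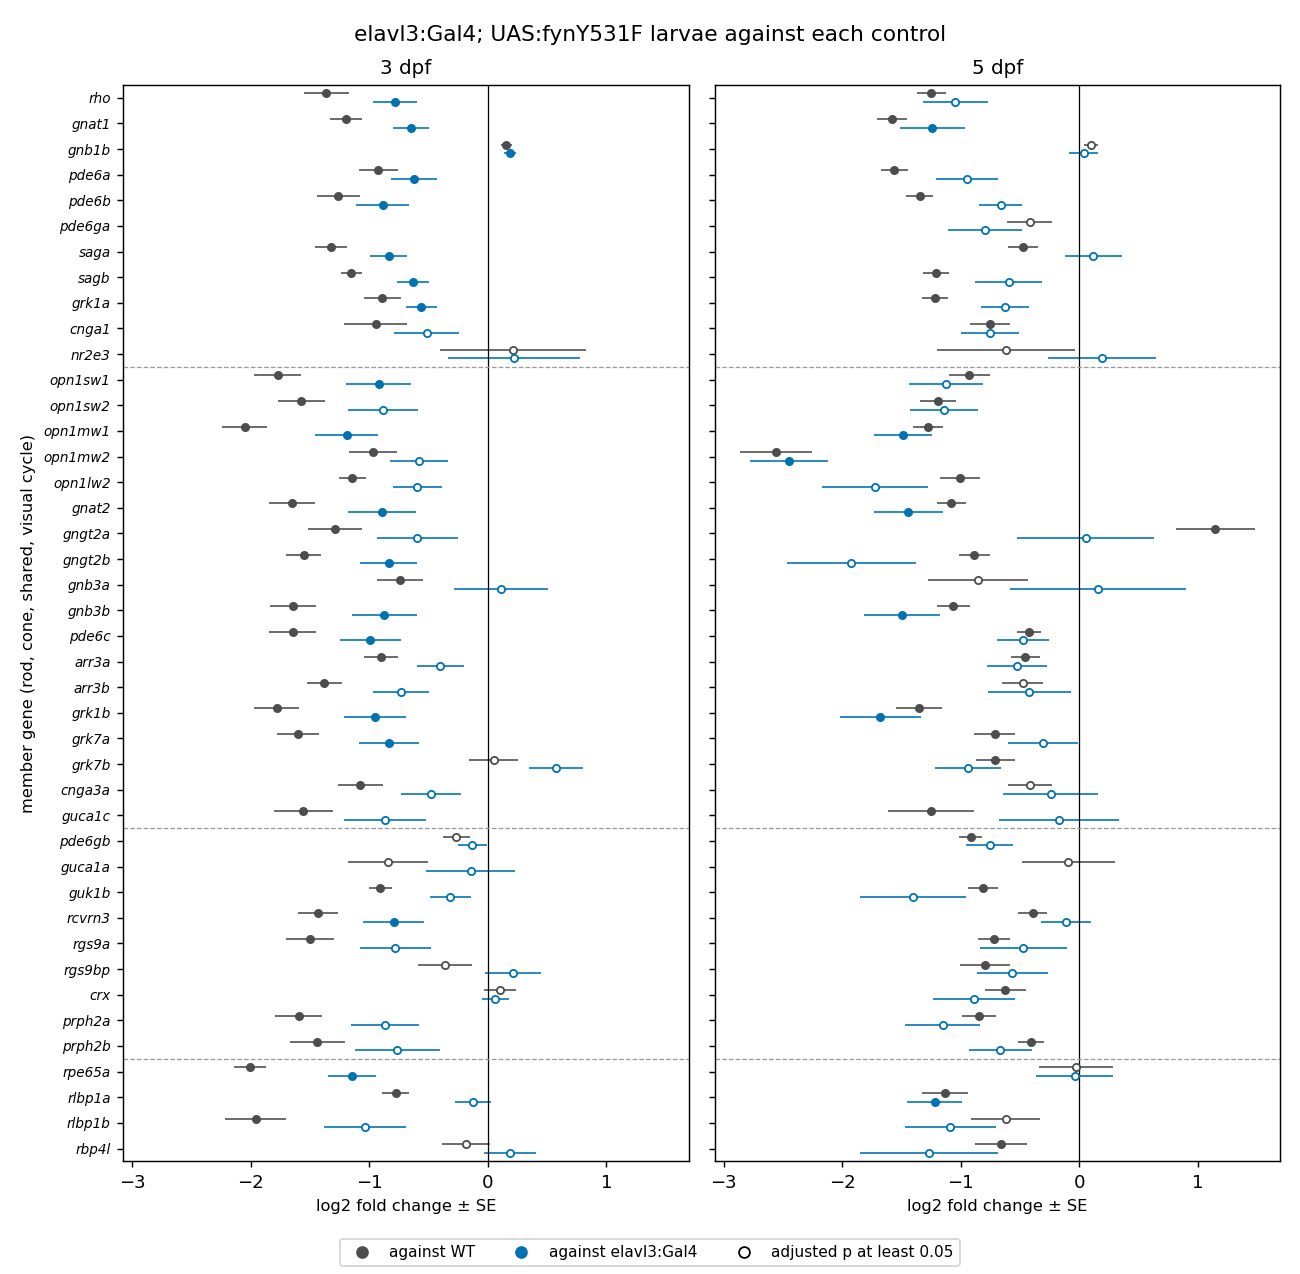
Each row is a member gene and each point is its log2 fold change ± SE (horizontal axis) in fynY531F larvae against WT (grey) or *elavl3:Gal4* larvae (blue), at 3 dpf (left) and 5 dpf (right), with filled points called at an adjusted p under 0.05. Most points lie left of 0 at both ages: 33 of 41 members were lower than WT at 3 dpf and 32 of 42 at 5 dpf.

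Rod genes were lower in fynY531F larvae than in WT larvae at both ages, with 8 of 10 called at 3 dpf and 8 of 11 at 5 dpf. The shares of all genes called lower were 14.8% and 14.3%. Rhodopsin, *rho* (chromosome 8, 54076195 to 54077740, - strand), had 623, 384, 779.8 and 581 CPM in WT, 270.2, 446, 527 and 376 CPM in *elavl3:Gal4* and 254, 175, 209 and 286 CPM in fynY531F larvae at 3 dpf, in replicates 1 to 4. At 5 dpf *rho* had 1310.4, 1031, 1322 and 1214 CPM in WT, 1137, 863, 1613 and 664 CPM in *elavl3:Gal4* and 570.0, 405, 517 and 559 CPM in fynY531F larvae. All fynY531F libraries lay below all WT libraries at each age, and at 3 dpf they overlapped *elavl3:Gal4*, whose replicate 1 was the lowest of its group. Against WT, *rho* was 2.57-fold lower at 3 dpf (log2 fold change -1.36 ± 0.19 SE, adjusted p = 0.000225) and 2.38-fold lower at 5 dpf (log2 fold change -1.25 ± 0.12 SE, adjusted p = 5.87e-05). Against *elavl3:Gal4*, it fell at 3 dpf (log2 fold change -0.78 ± 0.19 SE, adjusted p = 0.0117) and missed the threshold at 5 dpf (log2 fold change -1.05 ± 0.27 SE, adjusted p = 0.0681). Without *elavl3:Gal4* replicate 3, that last value was -0.79 ± 0.18, adjusted p = 0.012.

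The rod transducin alpha subunit, *gnat1*, had 52.8, 37.5, 60.5 and 47.5 CPM in WT, 24.5, 33.9, 43.8 and 36.8 CPM in *elavl3:Gal4* and 25.4, 17.7, 21.2 and 22.6 CPM in fynY531F larvae at 3 dpf. At 5 dpf *gnat1* had 90.0, 70.5, 84.6 and 90.4 CPM in WT, 70.0, 53, 104 and 41.5 CPM in *elavl3:Gal4* and 34.4, 23.2, 25.9 and 29.1 CPM in fynY531F larvae. FynY531F libraries were below every WT library at both ages and below every *elavl3:Gal4* library at 5 dpf, with a gap at 5 dpf from 34.4 to 41.5 CPM. *gnat1* was the only rod gene called against *elavl3:Gal4* at 5 dpf (log2 fold change -1.24 ± 0.27 SE, adjusted p = 0.0393), a call lost without *elavl3:Gal4* replicate 1 or 2 or any 1 of the fynY531F replicates (adjusted p up to 0.127). Against WT its difference was -1.19 ± 0.14 (adjusted p = 5.34e-05) at 3 dpf and -1.58 ± 0.13 (adjusted p = 1.8e-05) at 5 dpf. Its drop at 5 dpf was among the 4 largest of all members called against WT, and so was that of *pde6a*.

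*pde6a* and *pde6b* encode the catalytic subunits of rod phosphodiesterase. *pde6a* had 19.4, 17.7, 22.8 and 22.0 CPM in WT, 14.8, 10.3, 19.7 and 9.13 CPM in *elavl3:Gal4* and 6.94, 7.52, 6.22 and 6.97 CPM in fynY531F larvae at 5 dpf. Both controls lay above every fynY531F library, with *elavl3:Gal4* replicates 2 and 4 the nearest to them. Against WT, *pde6a* was 2.95-fold lower at 5 dpf (log2 fold change -1.56 ± 0.11 SE, adjusted p = 8.1e-06), and *pde6b* was 2.54-fold lower (log2 fold change -1.35 ± 0.11 SE, adjusted p = 2.39e-05). The rod arrestins *saga* and *sagb*, which cap active rhodopsin, were both lower at 3 dpf. Their log2 fold changes were -1.32 ± 0.13 and -1.15 ± 0.09 (adjusted p = 1.83e-05 and 1.89e-06). At 5 dpf *sagb* was 2.31-fold lower than in WT (adjusted p = 4.61e-05) and *saga* 1.39-fold lower (adjusted p = 0.0186), a *saga* call lost without WT replicate 3 or 4 (adjusted p up to 0.0574). The rhodopsin kinase gene *grk1a* and the rod channel gene *cnga1* were lower at both ages as well, with log2 fold changes of -1.22 ± 0.11 for *grk1a* and -0.76 ± 0.17 for *cnga1* at 5 dpf (adjusted p = 3.33e-05 and 0.00759). The 3 dpf call of *cnga1* was lost without WT replicate 1 or 3 (adjusted p up to 0.0615).

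The remaining rod genes did not follow. *gnb1b*, a G protein beta subunit that many tissues use and that is listed with the rods, had 338, 325, 326 and 345 CPM in WT, 328, 357, 312 and 332 CPM in *elavl3:Gal4* and 374, 367, 378 and 369 CPM in fynY531F larvae at 3 dpf. It was the only rod gene called higher, 1.11-fold against WT (log2 fold change 0.15 ± 0.05 SE, adjusted p = 0.0271) and 1.14-fold against *elavl3:Gal4* (log2 fold change 0.19 ± 0.05 SE, adjusted p = 0.0221). The call against WT was lost without WT replicate 2 or 3 or fynY531F replicate 1, 3 or 4, and the one against *elavl3:Gal4* without its replicate 3 or 4 or the same fynY531F replicates. *pde6ga*, a gamma subunit of phosphodiesterase, had 3.56 to 5.01 CPM in WT and 2.45 to 3.91 CPM in fynY531F larvae at 5 dpf and was not called (log2 fold change -0.42 ± 0.19 SE, adjusted p = 0.125). *nr2e3*, a nuclear receptor of the rod fate programme, varied from 0.287 to 3.00 CPM among WT libraries at 3 dpf, and no comparison called it.

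Cone genes were lower in fynY531F larvae than in WT larvae, with 17 of 18 called at 3 dpf and 14 of 18 at 5 dpf, and 1 higher at 5 dpf. Over all genes, 14.8% were called lower at 3 dpf, and 14.3% lower and 14.5% higher at 5 dpf. All 5 cone opsins that could be tested were lower at both ages. The UV opsin *opn1sw1* (chromosome 4, 13577665 to 13580348, - strand) had 1184, 642, 1133 and 816 CPM in WT, 249, 675, 746 and 466 CPM in *elavl3:Gal4* and 361, 208, 239 and 299.7 CPM in fynY531F larvae at 3 dpf. At 5 dpf *opn1sw1* had 1061, 1069, 1239.5 and 1224 CPM in WT, 1689, 921, 1799.8 and 899 CPM in *elavl3:Gal4* and 816, 413, 538 and 645 CPM in fynY531F larvae. FynY531F libraries lay below every WT library at both ages and overlapped *elavl3:Gal4* at 3 dpf only, where replicate 1 of that group fell within their range. Against WT the difference was 3.41-fold at 3 dpf (log2 fold change -1.77 ± 0.20 SE, adjusted p = 4.23e-05) and 1.90-fold at 5 dpf (log2 fold change -0.93 ± 0.17 SE, adjusted p = 0.0029). Against *elavl3:Gal4* it was -0.92 ± 0.27 (adjusted p = 0.0351) at 3 dpf, a call lost without 6 of the 8 libraries in turn (*elavl3:Gal4* replicates 2, 3 and 4 and fynY531F replicates 2, 3 and 4, adjusted p up to 0.0955). At 5 dpf it was -1.13 ± 0.31 (adjusted p = 0.0807) with *elavl3:Gal4* replicate 3 and -0.95 ± 0.26, adjusted p = 0.028 without it.

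The blue opsin *opn1sw2* (chromosome 11, 25459697 to 25475403, + strand) was the scarcest of the 4 main cone opsins, with 39.5, 27.3, 43.3 and 33.7 CPM in WT, 10.46, 27.0, 32.1 and 21.1 CPM in *elavl3:Gal4* and 18.5, 8.36, 10.4 and 11.5 CPM in fynY531F larvae at 3 dpf. At 5 dpf *opn1sw2* had 41.0, 51.5, 52.5 and 51.1 CPM in WT, 71.6, 43.6, 30.4 and 45.1 CPM in *elavl3:Gal4* and 27.5, 16.1, 18.8 and 23.9 CPM in fynY531F larvae. FynY531F libraries were again below all WT libraries at both ages. Its fold changes against WT were -1.57 ± 0.20 (adjusted p = 0.000126) at 3 dpf and -1.19 ± 0.15 (adjusted p = 0.000328) at 5 dpf on the log2 scale. The red opsin *opn1lw2* (chromosome 11, 25481046 to 25483206, + strand) had 170.5, 127, 180.2 and 169 CPM in WT, 67.4, 123, 165 and 96.3 CPM in *elavl3:Gal4* and 84.1, 73.1, 61.7 and 75.4 CPM in fynY531F larvae at 3 dpf. Its 5 dpf values were 187, 204, 188 and 196 CPM in WT, 277, 172, 668 and 179 CPM in *elavl3:Gal4* and 113, 66.1, 82.8 and 125 CPM in fynY531F larvae, with *elavl3:Gal4* replicate 3 above every other library of the series. Against WT, *opn1lw2* was 2.21-fold lower at 3 dpf (log2 fold change -1.14 ± 0.11 SE, adjusted p = 1.46e-05) and 2.01-fold lower at 5 dpf (log2 fold change -1.01 ± 0.17 SE, adjusted p = 0.00149). Neither opsin was called against *elavl3:Gal4* at either age, and without replicate 3 of that group the 5 dpf values were -1.31 ± 0.21, adjusted p = 0.00264 for *opn1sw2* and -1.11 ± 0.23, adjusted p = 0.00808 for *opn1lw2*.

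In all 4 comparisons of fynY531F larvae with a control, the called member with the largest drop was a green opsin gene. It was *opn1mw1* at 3 dpf and the scarcer *opn1mw2* at 5 dpf. At 3 dpf the visual cycle gene *rpe65a* came next, within the SE of *opn1mw1*. At 5 dpf the drop of *opn1mw1* was not among the 4 largest against WT. *opn1mw1*, the main green opsin, had 472, 279.8, 459.8 and 329.6 CPM in WT, 101, 267, 289.7 and 209 CPM in *elavl3:Gal4* and 120.3, 69.8, 79.5 and 103 CPM in fynY531F larvae at 3 dpf. At 5 dpf *opn1mw1* had 501, 569, 607 and 555 CPM in WT, 869.8, 487, 754 and 489 CPM in *elavl3:Gal4* and 281, 178, 221 and 239.8 CPM in fynY531F larvae. FynY531F libraries lay below all others at 5 dpf, and at 3 dpf they overlapped only *elavl3:Gal4* replicate 1. It was 4.14-fold lower than in WT at 3 dpf (log2 fold change -2.05 ± 0.19 SE, adjusted p = 8.1e-06), and 2.42-fold lower at 5 dpf (log2 fold change -1.28 ± 0.13 SE, adjusted p = 6.35e-05). It was also called against *elavl3:Gal4*, with -1.19 ± 0.27 (adjusted p = 0.00844) at 3 dpf and -1.49 ± 0.24 (adjusted p = 0.0114) at 5 dpf, the latter lost without fynY531F replicate 3 or 4 (adjusted p up to 0.051).

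*opn1mw2*, the second gene of the green opsin array, is a minor transcript in larvae, with 9.08, 6.07, 7.74 and 6.15 CPM in WT, 3.54, 6.39, 7.57 and 5.03 CPM in *elavl3:Gal4* and 3.76, 2.42, 3.84 and 4.79 CPM in fynY531F larvae at 3 dpf. At 5 dpf *opn1mw2* had 6.63, 13.3, 12.4 and 12.8 CPM in WT, 9.15, 9.72, 13.5 and 10.1 CPM in *elavl3:Gal4* and 1.86, 1.59, 3.11 and 1.12 CPM in fynY531F larvae. WT replicate 1 was low in its group at 5 dpf, and it still lay above every fynY531F library. *opn1mw2* was 5.88-fold lower than in WT at 5 dpf (log2 fold change -2.56 ± 0.30 SE, adjusted p = 0.000189) and 5.46-fold lower than in *elavl3:Gal4* (log2 fold change -2.45 ± 0.33 SE, adjusted p = 0.00492). At 3 dpf its difference was -0.97 ± 0.20 (adjusted p = 0.00398) against WT and -0.58 ± 0.24 (adjusted p = 0.12) against *elavl3:Gal4*. Reads shared with *opn1mw1* could move either value.

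**Figure D2:**
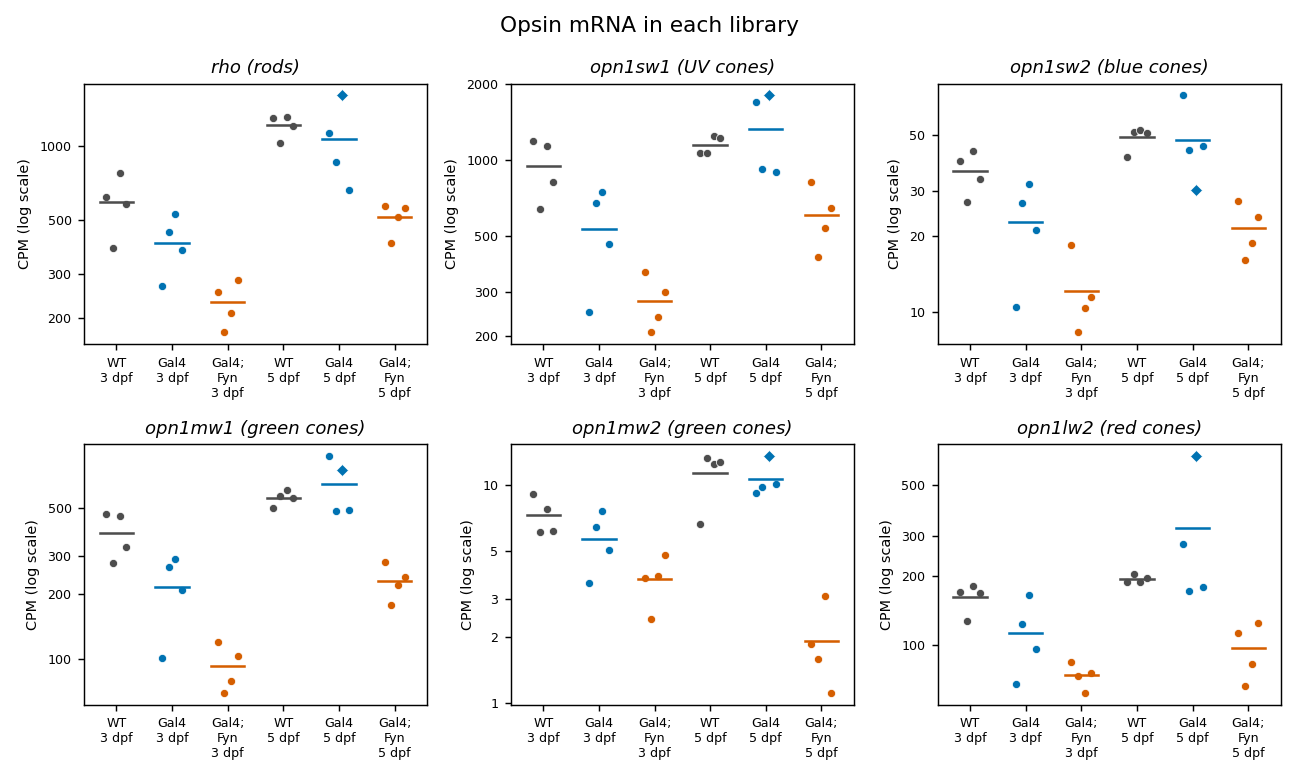
The 6 opsin genes that could be tested are shown as CPM on log axes in every library, with 4 points for each of the 6 groups (grey WT, blue *elavl3:Gal4*, orange fynY531F), a bar at the group mean, and a diamond for *elavl3:Gal4* replicate 3 at 5 dpf. In each panel all fynY531F points lie below all WT points of the same age, and *elavl3:Gal4* at 3 dpf spreads from the WT to the fynY531F range, as for *rho* with 270.2 to 527 CPM.

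Of the 13 other cone genes tested, which carry or shut off the signal, 12 were lower than in WT at 3 dpf, and at 5 dpf 9 were lower and 1 was higher. Over all genes, 14.8% were called lower at 3 dpf, and 14.3% lower and 14.5% higher at 5 dpf. *gnat2*, the cone transducin alpha subunit, had 244, 130.4, 236 and 195 CPM in WT, 51.5, 158, 166 and 108 CPM in *elavl3:Gal4* and 85.7, 52.4, 51.4 and 68.1 CPM in fynY531F larvae at 3 dpf. At 5 dpf *gnat2* had 388, 445, 454 and 468 CPM in WT, 628, 388, 884 and 376 CPM in *elavl3:Gal4* and 251, 159.9, 201 and 218 CPM in fynY531F larvae. FynY531F libraries were below every WT library at both ages and below every *elavl3:Gal4* library at 5 dpf. *gnat2* was 3.14-fold lower than in WT at 3 dpf (log2 fold change -1.65 ± 0.19 SE, adjusted p = 6.59e-05) and 2.11-fold lower at 5 dpf (log2 fold change -1.08 ± 0.12 SE, adjusted p = 0.000162). Against *elavl3:Gal4* the differences were -0.89 ± 0.29 (adjusted p = 0.0496) and -1.44 ± 0.29 (adjusted p = 0.0279), with the 3 dpf call lost without *elavl3:Gal4* or fynY531F replicate 2, 3 or 4 and the 5 dpf call without *elavl3:Gal4* replicate 1 or any 1 of the fynY531F replicates (adjusted p up to 0.137 and 0.0982).

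*gnb3b*, the main cone transducin beta gene, was lower than in WT at both ages, with log2 fold changes of -1.64 ± 0.19 at 3 dpf and -1.06 ± 0.14 at 5 dpf (adjusted p = 6.71e-05 and 0.000398). At 5 dpf *gnb3b* had 304, 333, 355 and 335 CPM in WT, 508, 277, 720.3 and 302 CPM in *elavl3:Gal4* and 197, 114, 151 and 172 CPM in fynY531F larvae, without overlap between fynY531F and either control. The call against *elavl3:Gal4* at 5 dpf (log2 fold change -1.5 ± 0.32 SE, adjusted p = 0.0352) was lost without *elavl3:Gal4* replicate 1 or any 1 of the fynY531F replicates (adjusted p up to 0.113). *grk1b*, a cone opsin kinase, showed one of the 4 largest drops in all 4 comparisons. It had 26.1, 14.3, 22.7 and 19.3 CPM in WT, 5.85, 13.3, 16.9 and 11.1 CPM in *elavl3:Gal4* and 7.98, 4.77, 5.68 and 5.68 CPM in fynY531F larvae at 3 dpf. At 5 dpf *grk1b* had 29.8, 31.1, 28.7 and 32.0 CPM in WT, 46.2, 24.6, 57.5 and 27.1 CPM in *elavl3:Gal4* and 16.5, 7.40, 10.6 and 13.6 CPM in fynY531F larvae. It was 3.44-fold lower than in WT at 3 dpf (adjusted p = 2.74e-05) and 2.55-fold lower at 5 dpf (adjusted p = 0.000593). Against *elavl3:Gal4* the values were -0.95 ± 0.26 (adjusted p = 0.0249) and -1.68 ± 0.34 (adjusted p = 0.028), calls lost without *elavl3:Gal4* replicate 2 or 3 or fynY531F replicate 3 or 4 at 3 dpf and without *elavl3:Gal4* replicate 1 or fynY531F replicate 2, 3 or 4 at 5 dpf (adjusted p up to 0.0702 and 0.0982).

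*pde6c*, the catalytic subunit of cone phosphodiesterase, had 108, 59.0, 121 and 89.2 CPM in WT, 29.3, 77.6, 80.9 and 55.46 CPM in *elavl3:Gal4* and 36.9, 24.1, 25.1 and 35.2 CPM in fynY531F larvae at 3 dpf. At 5 dpf the same gene had 136, 146, 146 and 148 CPM in WT, 201, 124, 168 and 107 CPM in *elavl3:Gal4* and 127, 85.5, 105 and 112 CPM in fynY531F larvae. It was 3.13-fold lower than in WT at 3 dpf (log2 fold change -1.64 ± 0.20 SE, adjusted p = 8.38e-05) and 1.34-fold lower at 5 dpf (log2 fold change -0.42 ± 0.10 SE, adjusted p = 0.0124). Against *elavl3:Gal4* it was called at 3 dpf (log2 fold change -0.99 ± 0.26 SE, adjusted p = 0.0184, lost without *elavl3:Gal4* replicate 2 or fynY531F replicate 3, adjusted p up to 0.0605) and not at 5 dpf (log2 fold change -0.47 ± 0.22 SE, adjusted p = 0.269).

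The cone arrestins *arr3a* and *arr3b* were lower than in WT at 3 dpf, with log2 fold changes of -0.90 ± 0.14 and -1.38 ± 0.15 (adjusted p = 0.000671 and 3.08e-05). At 5 dpf *arr3a* was called at -0.45 ± 0.12 (adjusted p = 0.0192, and 0.0502 without WT replicate 1) and *arr3b* was not (log2 fold change -0.48 ± 0.18 SE, adjusted p = 0.0632). The opsin kinase *grk7a* was lower at both ages (-1.60 ± 0.18, adjusted p = 4.05e-05 at 3 dpf and -0.71 ± 0.18, adjusted p = 0.0123 at 5 dpf). Its paralog *grk7b* was the single cone gene of those tested that was not lower than WT at 3 dpf (log2 fold change 0.05 ± 0.20 SE, adjusted p = 0.885), and it was lower at 5 dpf (log2 fold change -0.71 ± 0.16 SE, adjusted p = 0.00934). The cone channel gene *cnga3a* was called at 3 dpf alone (-1.07 ± 0.19, adjusted p = 0.00141, against -0.42 ± 0.18, adjusted p = 0.113 at 5 dpf). *guca1c*, a guanylate cyclase activator, was called at both ages, and its 5 dpf call (log2 fold change -1.25 ± 0.37 SE, adjusted p = 0.0263) was lost without WT replicate 2, 3 or 4 or fynY531F replicate 2, 3 or 4 (adjusted p up to 0.0713).

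The 2 cone transducin gamma genes parted at 5 dpf. *gngt2b*, the abundant one, had 229, 252, 257 and 245 CPM in WT, 395, 238, 1215 and 204 CPM in *elavl3:Gal4* and 168, 97.9, 136 and 132 CPM in fynY531F larvae, and was 1.85-fold lower than in WT (log2 fold change -0.88 ± 0.13 SE, adjusted p = 0.000866). Replicate 3 of *elavl3:Gal4* was the highest of all libraries, and *gngt2b* was called against *elavl3:Gal4* without it (-1.07 ± 0.23, adjusted p = 0.00992) and not with it (-1.92 ± 0.55, adjusted p = 0.0869). *gngt2a* was scarce, with 0.316, 0.933, 0.823 and 0.971 CPM in WT, 1.71, 0.989, 3.95 and 0.390 CPM in *elavl3:Gal4* and 1.27, 1.42, 2.35 and 1.81 CPM in fynY531F larvae at 5 dpf. It was the single member called higher than in WT at 5 dpf (log2 fold change 1.15 ± 0.33 SE, adjusted p = 0.026), a call lost without WT replicate 1 or 3 or fynY531F replicate 3 or 4 (adjusted p up to 0.07). At 3 dpf *gngt2a* had been lower, with 1.51 to 3.99 CPM in fynY531F and 6.35 to 8.22 CPM in WT larvae (log2 fold change -1.29 ± 0.23 SE, adjusted p = 0.00129). *gnb3a*, a second beta gene, was called lower at 3 dpf (log2 fold change -0.74 ± 0.20 SE, adjusted p = 0.014) and spread from 1.66 to 4.94 CPM among WT libraries at 5 dpf.

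Genes used by both photoreceptor types, or not assigned, were lower in 5 of 9 cases at 3 dpf and 8 of 9 at 5 dpf against WT. The shares of all genes called lower were 14.8% and 14.3%. The disc rim proteins *prph2a* and *prph2b* (peripherins, which shape outer segment discs) were lower than in WT at 3 dpf, with log2 fold changes of -1.60 ± 0.20 and -1.44 ± 0.23 (adjusted p = 9.37e-05 and 0.000696). *prph2b* had 20.4, 20.7, 25.6 and 17.7 CPM in WT, 18.8, 20.3, 42.6 and 20.4 CPM in *elavl3:Gal4* and 14.9, 15.6, 16.5 and 16.5 CPM in fynY531F larvae at 5 dpf, where it was 1.33-fold lower than in WT (log2 fold change -0.41 ± 0.11 SE, adjusted p = 0.0183). *rcvrn3* (a recoverin, which restrains opsin kinases), *rgs9a* (which speeds transducin shut-off) and *guk1b* (a guanylate kinase) were lower at both ages. Of them *rcvrn3* was also called against *elavl3:Gal4* at 3 dpf (log2 fold change -0.79 ± 0.26 SE, adjusted p = 0.0481), a call lost without *elavl3:Gal4* or fynY531F replicate 2, 3 or 4 (adjusted p up to 0.128). Its 5 dpf call against WT (-0.39 ± 0.12, adjusted p = 0.0341) was lost without any 1 of the WT replicates or fynY531F replicate 2 or 3 (adjusted p up to 0.0917).

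*crx*, the homeobox factor that switches on photoreceptor genes, was not called at 3 dpf, with 17.2, 16.6, 18.7 and 24.8 CPM in WT, 21.4, 22.3, 20.2 and 16.8 CPM in *elavl3:Gal4* and 20.6, 16.4, 22.6 and 23.1 CPM in fynY531F larvae (log2 fold change 0.10 ± 0.13 SE, adjusted p = 0.617 against WT). At 5 dpf *crx* had 9.70, 8.58, 12.4 and 12.2 CPM in WT, 16.3, 9.51, 19.6 and 6.71 CPM in *elavl3:Gal4* and 8.12, 6.72, 7.81 and 5.16 CPM in fynY531F larvae, and was lower than in WT (log2 fold change -0.62 ± 0.17 SE, adjusted p = 0.0207, a call lost without WT replicate 3 or 4, adjusted p up to 0.0636). *pde6gb* and *rgs9bp* (the anchor of RGS9) likewise were called at 5 dpf and not at 3 dpf, with -0.91 ± 0.10 (adjusted p = 9.86e-05) for *pde6gb* and -0.79 ± 0.21 (adjusted p = 0.0176) for *rgs9bp* at 5 dpf, the latter lost without WT replicate 3 or 4 (adjusted p up to 0.0566). At 3 dpf these 2 genes stood at -0.26 ± 0.12 and -0.36 ± 0.23 on the log2 scale. *guca1a* was not called at either age.

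Of the 4 visual cycle members, 3 were lower than in WT at 3 dpf and 2 at 5 dpf, where 14.8% and 14.3% of all genes were. *rpe65a*, the retinoid isomerase of the pigment epithelium, had 67.9, 47.5, 68.2 and 50.3 CPM in WT, 29.7, 39.2, 43.2 and 19.4 CPM in *elavl3:Gal4* and 17.2, 12.3, 14.9 and 14.0 CPM in fynY531F larvae at 3 dpf. The 3 groups were ordered WT, *elavl3:Gal4*, fynY531F without overlap. It was 4.01-fold lower in fynY531F than in WT larvae (log2 fold change -2.00 ± 0.13 SE, adjusted p = 5.35e-07) and 2.22-fold lower than in *elavl3:Gal4* larvae (log2 fold change -1.15 ± 0.20 SE, adjusted p = 0.00198). At 5 dpf *rpe65a* had 24.7, 32.9, 30.2 and 7.99 CPM in WT, 32.8, 13.8, 37.2 and 14.2 CPM in *elavl3:Gal4* and 22.6, 24.7, 24.1 and 22.8 CPM in fynY531F larvae. Libraries of both controls were widely spread at that age, with WT replicate 4 the lowest, and fynY531F lay inside their range (log2 fold change -0.03 ± 0.31 SE, adjusted p = 0.954 against WT and -0.04 ± 0.33, adjusted p = 0.964 against *elavl3:Gal4*).

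*rlbp1a* and *rlbp1b* encode retinaldehyde-binding proteins, known in zebrafish from the pigment epithelium and from Müller glia. *rlbp1b* had 4.36, 4.02, 4.23 and 4.03 CPM in WT, 2.63, 2.84, 2.19 and 1.14 CPM in *elavl3:Gal4* and 1.43, 0.547, 0.818 and 1.51 CPM in fynY531F larvae at 3 dpf, was 3.88-fold lower in fynY531F than in WT larvae (log2 fold change -1.96 ± 0.26 SE, adjusted p = 0.000166), and was not called at 5 dpf (log2 fold change -0.62 ± 0.29 SE, adjusted p = 0.136). *rlbp1a* was lower than in WT at 3 dpf (log2 fold change -0.78 ± 0.11 SE, adjusted p = 0.000342) and lower than in both controls at 5 dpf. Its 5 dpf values were 23.8, 20.6, 23.1 and 34.4 CPM in WT, 23.6, 26.8, 37.2 and 22.0 CPM in *elavl3:Gal4* and 13.7, 7.97, 11.7 and 13.2 CPM in fynY531F larvae. All fynY531F libraries lay below all control libraries (log2 fold change -1.13 ± 0.19 SE, adjusted p = 0.00179 against WT and -1.22 ± 0.23, adjusted p = 0.0234 against *elavl3:Gal4*), and the call against *elavl3:Gal4* was lost without its replicate 2 or fynY531F replicate 2, 3 or 4 (adjusted p up to 0.0807). *rbp4l*, a retinol-binding protein gene, was called at 5 dpf against WT alone (log2 fold change -0.66 ± 0.22 SE, adjusted p = 0.045), and the call was lost without any 1 of the WT replicates or fynY531F replicate 2, 3 or 4 (adjusted p up to 0.109).

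The driver line on its own was compared with WT to see what it carries without the UAS transgene. At 3 dpf, 4 of 41 members were lower and 0 were higher, against 2.97% and 1.82% of all genes, with a member median of -0.63 and 40 of 41 members below 0. The 4 were *sagb* (-0.51 ± 0.13, adjusted p = 0.0442), *rpe65a* (-0.85 ± 0.20, adjusted p = 0.034), *rlbp1a* (-0.64 ± 0.15, adjusted p = 0.0329) and *rlbp1b* (-0.91 ± 0.23, adjusted p = 0.0437). *sagb* had 99.7, 82.2, 106 and 90.3 CPM in WT and 47.4, 68.2, 75.7 and 78.0 CPM in *elavl3:Gal4* larvae, without overlap. *rlbp1a* had 35.5, 26.1, 27.9 and 27.5 CPM in WT and 15.6, 18.5, 26.1 and 16.3 CPM in *elavl3:Gal4* larvae, where *elavl3:Gal4* replicate 3 and WT replicate 2 met at 26.1 CPM. Leaving out *elavl3:Gal4* replicate 3, the highest of its group, raised the count to 13, all lower, against 4.62% of all genes. No member was called without WT replicate 1, 2 or 3 or *elavl3:Gal4* replicate 1, 2 or 4, and 2 were without WT replicate 4. The share of all genes called lower also fell, to 0.546% without WT replicate 2 and 0.787% without *elavl3:Gal4* replicate 1. For the other fits that lost calls it is not given here, so whether members lost more calls than other genes is not shown. With all 6 groups in one fit 0 members and 0% of all genes were called. In that fit 22 members had an unadjusted p under 0.05, and the matching share of all genes is not given here. With no filter on low counts 8 members were lower, against 2.5% of all genes. No opsin was called (*rho* -0.57 ± 0.21, adjusted p = 0.126 and *opn1sw1* -0.84 ± 0.28, adjusted p = 0.0969).

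At 5 dpf, edgeR called 0 of 40 members between *elavl3:Gal4* and WT larvae, where it called 0.0508% of all genes lower and 0% higher. DESeq2 called 1 member, *pde6b*, lower, against 0.49% of all genes lower and 0.124% higher. In edgeR 5 members had an unadjusted p under 0.05, and the matching share of all genes is not given here. Rod and cone genes differed in sign, with a median of -0.46 over rod genes and 0.14 over cone genes, the latter -0.03 when libraries were scaled by their totals alone. Without replicate 3, 6 members were called, all lower, against 1.53% of all genes called lower. They were 5 rod genes, *pde6a*, *pde6b*, *saga*, *sagb* and *grk1a*, and 1 cone gene, *guca1c*. Of these *sagb* had the lowest adjusted p, with 86.5, 64.9, 89.9 and 88.6 CPM in WT and 48.2, 39.6, 94.0 and 36.7 CPM in *elavl3:Gal4* larvae (-0.99 ± 0.12, adjusted p = 0.000726 without replicate 3 and -0.61 ± 0.29, adjusted p = 0.84 with it). *pde6b* stood between WT and fynY531F in *elavl3:Gal4* larvae, with means of 19.7 ± 2.48, 12.3 ± 1.91 and 7.73 ± 0.430 CPM in WT, *elavl3:Gal4* and fynY531F larvae. *rho* was -0.46 ± 0.15, adjusted p = 0.202 in the same test without replicate 3, and *opn1sw1* 0.02 ± 0.18, adjusted p = 0.987.

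Between 3 and 5 dpf, 6 of 11 rod and 11 of 18 cone genes rose in WT larvae, 4 cone genes fell, and no rod gene fell in the main fit. Of all 42 members, 19 rose and 9 fell, against 29.3% and 28.7% of all genes. With library totals as the only scaling, 15 rose and 14 fell, against 22% and 39.4% of all genes. The rod genes *gnb1b*, *saga* and *sagb* were among those 14. *sagb* fell also with a block on replicate number. With all 6 groups in one fit 8 rose and 8 fell, against 19.2% and 17.5% of all genes. *rho* rose 2.06-fold (log2 fold change 1.04 ± 0.16 SE, adjusted p = 7.65e-05), *gnat1* 1.69-fold (0.75 ± 0.12, adjusted p = 0.000126) and *pde6a* 2.15-fold (1.1 ± 0.14, adjusted p = 1.54e-05). *pde6ga* went from 0.358, 0.776, 0.358 and 0.513 to 4.34, 3.56, 5.01 and 3.73 CPM, a rise of 8.13-fold (adjusted p = 5.96e-07) and the largest of the members called. Of the cone opsins, *opn1sw2* (0.45 ± 0.12, adjusted p = 0.00621), *opn1mw1* (0.53 ± 0.13, adjusted p = 0.00411), *opn1mw2* (0.64 ± 0.20, adjusted p = 0.0145) and *opn1lw2* (0.26 ± 0.09, adjusted p = 0.0218) rose, and *opn1sw1* was not called (0.28 ± 0.15, adjusted p = 0.123). The *opn1lw2* call was lost without WT replicate 2 of 5 dpf (adjusted p = 0.0605). *gnat2* rose 2.17-fold (adjusted p = 2.07e-05).

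*gngt2a* fell the most, from 8.22, 6.35, 6.38 and 6.74 CPM to 0.316, 0.933, 0.823 and 0.971 CPM in WT (log2 fold change -3.15 ± 0.24 SE, adjusted p = 1.36e-07). *arr3a* fell from 164, 105, 148 and 134 to 58.8, 57.0, 52.4 and 55.6 CPM (log2 fold change -1.30 ± 0.11 SE, adjusted p = 2.97e-07), and *arr3b* fell alongside (-1.26 ± 0.13, adjusted p = 2.2e-06). In neither arrestin did the ages overlap. *rpe65a* fell in WT as well (log2 fold change -1.28 ± 0.28 SE, adjusted p = 0.00139), as did *crx* (-0.86 ± 0.15, adjusted p = 0.00022).

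In fynY531F larvae, 20 of 42 members rose and 7 fell with age, against 27% and 25.3% of all genes. *rho* rose 2.22-fold (log2 fold change 1.15 ± 0.16 SE, adjusted p = 0.000153), and *gnat1* 1.29-fold (0.37 ± 0.14, adjusted p = 0.0415, lost without fynY531F replicate 2, 3 or 4 of 3 dpf or 1 or 4 of 5 dpf, adjusted p up to 0.106). The largest rises were those of *pde6ga* (2.41 ± 0.27), *pde6c* (1.83 ± 0.16), *prph2b* (1.83 ± 0.13) and *rlbp1b* (1.73 ± 0.28) on the log2 scale, with adjusted p between 3.32e-06 and 0.000505. *rpe65a* rose (log2 fold change 0.69 ± 0.10 SE, adjusted p = 0.000254). *crx* (-1.58 ± 0.16, adjusted p = 2.14e-05), *arr3a* (-0.86 ± 0.16, adjusted p = 0.00125) and *guk1b* (-0.84 ± 0.13, adjusted p = 0.000307) fell on the same scale. *opn1mw2* fell from 3.76, 2.42, 3.84 and 4.79 to 1.86, 1.59, 3.11 and 1.12 CPM (log2 fold change -0.95 ± 0.31 SE, adjusted p = 0.0245), a call lost without fynY531F replicate 3 or 4 of 3 dpf or 2 or 4 of 5 dpf (adjusted p up to 0.0717).

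In *elavl3:Gal4* larvae, 15 of 41 members rose and 0 fell, against 15.4% and 10.4% of all genes, and 10 rose and 2 fell with library totals as the only scaling. Without replicate 3 of 5 dpf, 17 rose and 6 fell, against 29.6% and 29.4% of all genes. With all 6 groups in one fit 20 rose and 3 fell, against 25% and 20.8%. The count was 9, 8 and 6 without replicates 1, 2 and 4 of 3 dpf, and 8 without replicate 1 of 5 dpf. Without replicate 1 of 3 dpf, 10.7% of all genes were called higher and 6.61% lower. For the other fits with fewer calls these shares are not given here, so whether members lost more calls than other genes is not shown. *rho* rose 2.64-fold (log2 fold change 1.4 ± 0.31 SE, adjusted p = 0.0108). *gnat2* (2.23 ± 0.42, adjusted p = 0.00541) and *pde6ga* (3.76 ± 0.42, adjusted p = 0.000452) were among the 4 largest rises, as were *gngt2b* (2.18 ± 0.60, adjusted p = 0.029) and *rlbp1b* (1.78 ± 0.45, adjusted p = 0.0204). The *gngt2b* call was lost without any 1 of the 3 dpf replicates and the *rlbp1b* call without replicate 1, 3 or 4 of 3 dpf or 1 of 5 dpf (adjusted p up to 0.0816 and 0.057).

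**Figure D3:**
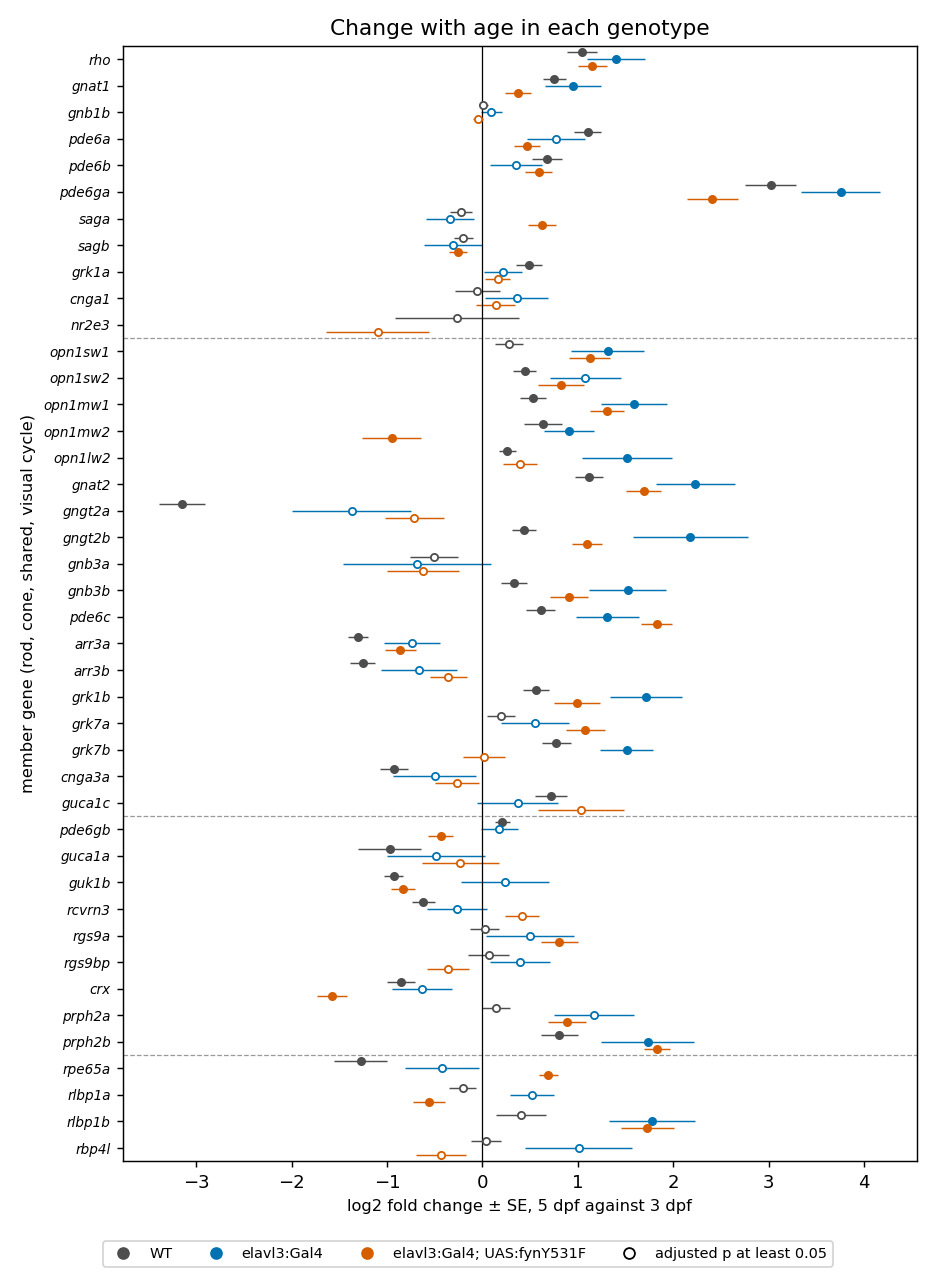
The log2 fold change ± SE from 3 to 5 dpf (horizontal axis) is drawn for each member in WT (grey), *elavl3:Gal4* (blue) and fynY531F larvae (orange), with filled points called at an adjusted p under 0.05. *rho* rose in each genotype, between 1.04 and 1.4, whereas *rpe65a* stood at -1.28 in WT and 0.69 in fynY531F larvae and *gngt2a* at -3.15 and -0.72.

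Whether the difference between fynY531F and WT larvae itself changed with age was tested as an interaction. Of 42 members, 7 moved up and 4 moved down relative to WT from 3 to 5 dpf, against 6.23% and 5.47% of all genes, and 11 and 2 did with library totals as the only scaling. With all 6 groups in one fit 3 calls were left, *gngt2a* and *rpe65a* up and *opn1mw2* down, against 2.5% and 1.74% of all genes. *gngt2a* (2.42 ± 0.42, adjusted p = 0.0011), *rpe65a* (1.96 ± 0.37, adjusted p = 0.00231) and *pde6c* (1.21 ± 0.25, adjusted p = 0.00465) moved up the most, so that their gap to WT narrowed, closed or turned. *rcvrn3*, *prph2b*, *arr3b* and *saga* were the other 4, with interaction terms between 0.84 and 1.03. Of these *prph2b* was not called without fynY531F replicate 3 of 3 dpf (adjusted p = 0.0527), and *arr3b* not without any of 7 of the 16 libraries (adjusted p up to 0.0597). *opn1mw2* moved down (-1.60 ± 0.39, adjusted p = 0.0116), from a log2 difference to WT of -0.97 at 3 dpf to -2.56 at 5 dpf. *crx* (-0.73 ± 0.23, adjusted p = 0.0458), *pde6gb* (-0.66 ± 0.16, adjusted p = 0.0126) and *pde6a* (-0.65 ± 0.20, adjusted p = 0.0455) moved down too, and leaving out any of 11 of the 16 libraries ended the call of *crx* and of *pde6a* (adjusted p up to 0.0998 and 0.101). *rho* had no interaction called (0.10 ± 0.25, adjusted p = 0.851), nor had *gnat1* (-0.40 ± 0.20, adjusted p = 0.235), *opn1sw1* (0.83 ± 0.29, adjusted p = 0.0766) or *opn1mw1* (0.76 ± 0.25, adjusted p = 0.0581). Over rod genes the median interaction term was -0.10 and over cone genes 0.56. The driver line alone had a similar split against WT, with medians of -0.12 and 0.71. For fynY531F against *elavl3:Gal4* larvae they were -0.15 and -0.23. Over all members the median was 0.33 for fynY531F and 0.51 for *elavl3:Gal4* larvae, each against WT.

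Against *elavl3:Gal4*, the interaction was called in 2 of 42 members, both down and both cone genes, with 1.72% of all genes called down and 2.43% up. They were *opn1mw2* (-1.86 ± 0.43, adjusted p = 0.0231) and *grk7b* (-1.51 ± 0.36, adjusted p = 0.028). *grk7b* had 1.89, 1.97, 2.61 and 1.83 CPM in *elavl3:Gal4* and 3.76, 2.89, 2.10 and 3.42 CPM in fynY531F larvae at 3 dpf. At 5 dpf *grk7b* had 7.85, 5.12, 6.93 and 3.74 CPM in *elavl3:Gal4* and 3.05, 2.45, 3.45 and 3.28 CPM in fynY531F larvae. The groups overlapped at 3 dpf, and at 5 dpf every fynY531F library lay below every *elavl3:Gal4* library. The *opn1mw2* call was lost without *elavl3:Gal4* replicate 4 or fynY531F replicate 4 of 3 dpf or fynY531F replicate 2 of 5 dpf, and that of *grk7b* without *elavl3:Gal4* replicate 1, 2 or 4 or fynY531F replicate 1 or 4 of 3 dpf or fynY531F replicate 2 of 5 dpf (adjusted p up to 0.0597 and 0.0677). Without *elavl3:Gal4* replicate 3 of 5 dpf, 6 members were called, 2 up and 4 down, against 9.4% and 6.48% of all genes. DESeq2 and the fit of all 6 groups each called 4, 1 up and 3 down, where DESeq2 called 4.45% and 3.53% of all genes and the other fit 4.97% and 3.9%. No member was called in the interaction of *elavl3:Gal4* with WT, where 0.0446% of all genes were called up and 0.144% down. DESeq2 called 0 members there too, against 0.498% of all genes up and 0.799% down. In edgeR 13 members had an unadjusted p under 0.05, and the matching share of all genes is not given here.

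To set rods against the 4 cone classes within a library, each opsin's counts were divided by gene length, and *rho* was taken as a share of the 9 opsins. A share within a library does not depend on how libraries were scaled. In WT larvae the *rho* share was 27.0%, 28.2%, 32.2% and 32.3% at 3 dpf and 44.7%, 37.4%, 41.0% and 39.7% at 5 dpf, so that it was higher at 5 dpf in every library. FynY531F larvae had 32.6%, 35.1%, 37.2% and 39.2% at 3 dpf, above every WT library, and 33.9%, 39.9%, 39.9% and 37.6% at 5 dpf, within or below the WT range. *elavl3:Gal4* larvae had 41.1%, 31.1%, 32.1% and 34.4% at 3 dpf and 30.1%, 36.8%, 35.6% and 31.1% at 5 dpf, which overlapped fynY531F at both ages. The 3 dpf group means were 29.9% ± 2.73 in WT, 34.7% ± 4.48 in *elavl3:Gal4* and 36.0% ± 2.85 in fynY531F larvae (SD, n = 4), and the 5 dpf means 40.7% ± 3.05, 33.4% ± 3.31 and 37.8% ± 2.86. The ages did not overlap in WT and did in fynY531F larvae. Each library's share rests on 6865 to 59360.0 opsin counts.

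Among the cone opsins alone, the UV opsin held 59% ± 1.69 of the signal in WT at 3 dpf, green opsins 27.9% ± 0.701, red opsins 10.3% ± 1.5 and the blue opsin 2.66% ± 0.210. In fynY531F larvae at 3 dpf the green share was 23.1%, 22.0%, 23.2% and 23.9%, below every WT and *elavl3:Gal4* library, and the red share was 13.7%, 19.4%, 14.9% and 14.6%, above every WT library. The UV share, 58.4% ± 1.60, and the blue share, 2.94% ± 0.439, overlapped WT. At 5 dpf the UV share of fynY531F larvae was 63.8%, 59%, 60.1% and 60.4%, above every library of both controls, and the green share 25.0%, 29.0%, 28.3% and 25.5%, below every WT library. The red share at 5 dpf was 9.39% ± 0.755 in WT and 9.65% ± 1.27 in fynY531F larvae. Replicate 3 of *elavl3:Gal4* at 5 dpf had a red share of 19.6% against at most 10.4% in the other 3 of its group. These shares sum the opsins themselves, so no test was made of them.

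**Figure D4:**
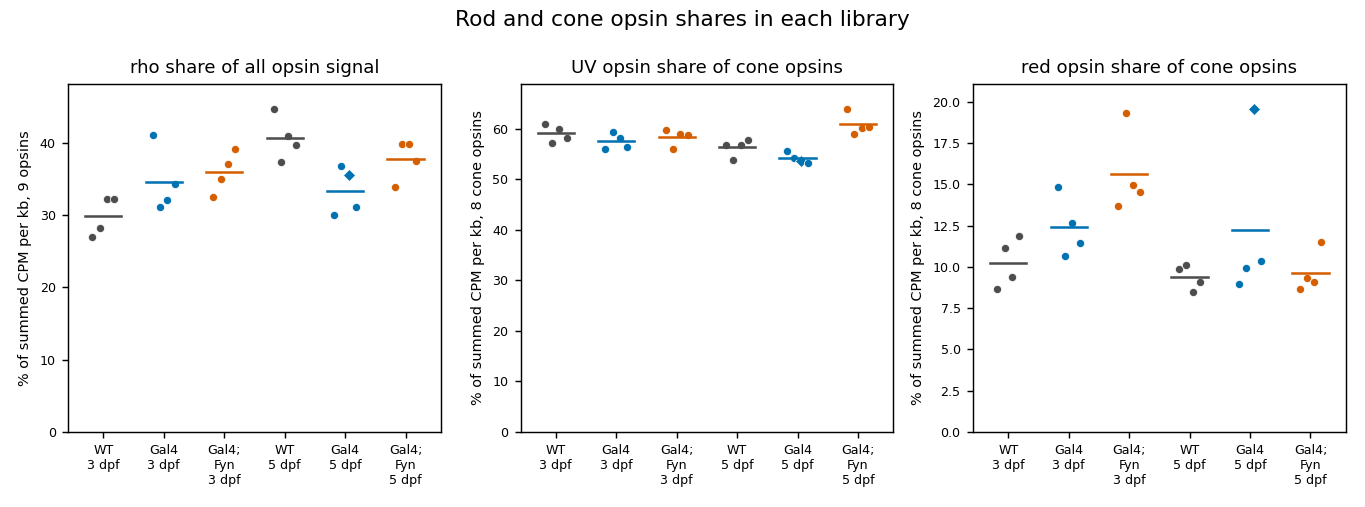
For every library the panels show the *rho* share of all opsin signal and the UV and red opsin shares of cone opsin signal, in % of summed CPM per kb, with bars at group means and a diamond for *elavl3:Gal4* replicate 3 at 5 dpf. The *rho* share of WT larvae went from 27.0% to 32.3% at 3 dpf to 37.4% to 44.7% at 5 dpf, and fynY531F larvae lay between 32.6% and 39.9% at both ages.

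Taken gene by gene, cone genes had the larger median drop at 3 dpf and rod genes at 5 dpf against WT. The median log2 fold change was -1.05 over 10 rod genes and -1.55 over 18 cone genes at 3 dpf, and -1.21 and -0.91 at 5 dpf. Against *elavl3:Gal4* the medians were -0.63 and -0.83 at 3 dpf and -0.66 and -1.03 at 5 dpf, where cone genes had the larger drop at both ages. Without *elavl3:Gal4* replicate 3, the 5 dpf medians were -0.59 and -0.91. The difference between the classes was not tested.

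Many other genes of the same pathways were lower than in WT. Of further photoreceptor genes, 23 of 45 tested were lower at 3 dpf and 27 of 47 at 5 dpf, with none higher, and medians of -0.62 and -0.70. Of all genes, 14.8% were lower than in WT at 3 dpf and 14.3% at 5 dpf. The largest drops were those of *guca1g* (a guanylate cyclase activator, -1.92 ± 0.36), *impg1a* (a matrix proteoglycan around photoreceptors, -1.46 ± 0.18) and *gucy2d* (a retinal guanylate cyclase, -1.41 ± 0.32) at 3 dpf on the log2 scale, with adjusted p of 0.00215, 8.69e-05 and 0.00671. At 5 dpf they were those of *kcnv2b* (a potassium channel subunit of photoreceptors, -2.71 ± 0.46), *guca1g* (-2.42 ± 0.41) and *cacna2d4a* (a calcium channel subunit, -1.37 ± 0.23). Against *elavl3:Gal4*, 8 of 43 further photoreceptor genes were lower at 3 dpf and 2 of 45 at 5 dpf, where 9.73% and 2.6% of all genes were. Of further visual cycle genes, 13 of 21 were lower than in WT at 3 dpf, and 7 were lower and 1 higher of 21 at 5 dpf. *rbp3*, the retinoid carrier between photoreceptors and pigment epithelium, was -1.53 ± 0.19 against WT (adjusted p = 0.000121) and -0.83 ± 0.23 against *elavl3:Gal4* (adjusted p = 0.0246) at 3 dpf. *bco1*, which cleaves carotene to retinal, was -1.42 ± 0.09 and -1.72 ± 0.23 in the same comparisons at 5 dpf (adjusted p = 3.9e-06 and 0.00484). *lrata*, a retinol esterifying enzyme, was the higher one (1.09 ± 0.33, adjusted p = 0.0294).

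Markers of other cells of the eye were read beside these genes, and their part in the result was not tested. Against WT, 14.8% of all genes were called lower and 12.7% higher at 3 dpf, and 14.3% and 14.5% at 5 dpf. Of bipolar cell markers, 6 were lower and 1 higher of 11 at 3 dpf and 9 of 11 were lower at 5 dpf against WT, and their summed level was 191 to 222 CPM in WT and 121 to 148 CPM in fynY531F larvae at 5 dpf. Horizontal cell markers were lower in 1 of 9 cases at 3 dpf and 6 of 8 at 5 dpf, led by the gap junction gene *cx52.6* (-3.22 ± 0.56, adjusted p = 0.00206). At 3 dpf the median log2 fold change of bipolar markers was -0.64 against WT and -0.08 against *elavl3:Gal4*, and that of horizontal markers -0.37 and 0.09. The driver line alone stood at -0.50 and -0.31 against WT at that age. At 5 dpf the fynY531F medians were -0.61 and -0.49 for bipolar and -0.81 and -0.71 for horizontal markers. Amacrine and ganglion cell markers went both ways, with 2 higher and 4 lower of 15 at 3 dpf and 1 and 5 at 5 dpf, and *gap43*, a growth cone gene that brain neurons also use, was 1.66 ± 0.07 at 3 dpf (adjusted p = 1.29e-08). Of Müller glia markers, 1 was higher and 5 lower of 11 at 3 dpf, and 1 and 3 at 5 dpf. The member *rlbp1a* is on this list and was lower than in WT at both ages.

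Pigment cell markers, which stand for melanocytes of the skin as well as pigment epithelium, were lower in 8 of 12 cases against WT and 9 of 12 against *elavl3:Gal4* at 3 dpf. Of all genes, 14.8% and 9.73% were lower. The member *rpe65a* is on this list and was lower in both comparisons. The summed level of these markers at 3 dpf was 666 to 730.3 CPM in WT, 598 to 784 in *elavl3:Gal4* and 403 to 485 in fynY531F larvae, without overlap between fynY531F and the controls. *tyrp1a*, a melanin enzyme gene, was -0.67 ± 0.12 against WT (adjusted p = 0.00125). At 5 dpf 4 of 13 pigment cell markers were lower and 1 was higher against WT, where 14.3% of all genes were lower and 14.5% higher. Few lens genes were called, with 1 of 21 lower at 3 dpf and 0 at 5 dpf against WT, and a summed level of 9583 to 11849 CPM in WT and 8559.6 to 11947 CPM in fynY531F larvae at 3 dpf. The pineal organ holds photoreceptors of its own and shares *crx*, *gnat2* and *opn1lw1* with the members. Of its markers, 3 of 10 were lower at 3 dpf and 5 of 10 at 5 dpf against WT, *asmt*, which makes melatonin, among them at both ages (-0.92 ± 0.22 and -0.78 ± 0.17, adjusted p = 0.00802 and 0.00617). These counts include the members *gnat2*, lower at both ages, and *crx*, lower at 5 dpf.

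Clock and light-response genes, many of which follow the hour of the day, differed between the groups too, with 17 lower and 1 higher of 28 at 3 dpf and 10 and 3 at 5 dpf between fynY531F and WT larvae. Of all genes, 14.8% were lower and 12.7% higher at 3 dpf, and 14.3% and 14.5% at 5 dpf. *nr1d1*, a clock repressor, was -1.44 ± 0.13 at 3 dpf (adjusted p = 6.05e-06), and *per2*, which light induces in zebrafish, was -2.26 ± 0.39 at 5 dpf (adjusted p = 0.00179). Photoreceptor genes can follow the day as well, and the part of collection time in their difference was not tested. Exocrine pancreas genes, which come on between these ages, were lower in 10 of 10 cases at 3 dpf and 13 of 14 at 5 dpf. Their median differences to WT were -2.21 and -1.22. They rose in 14 of 14 cases from 3 to 5 dpf in fynY531F larvae, where 27% of all genes rose. Markers of other larval tissues went both ways, with 4 higher and 4 lower of 15 at 3 dpf and 4 and 6 at 5 dpf.

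**Figure D5:**
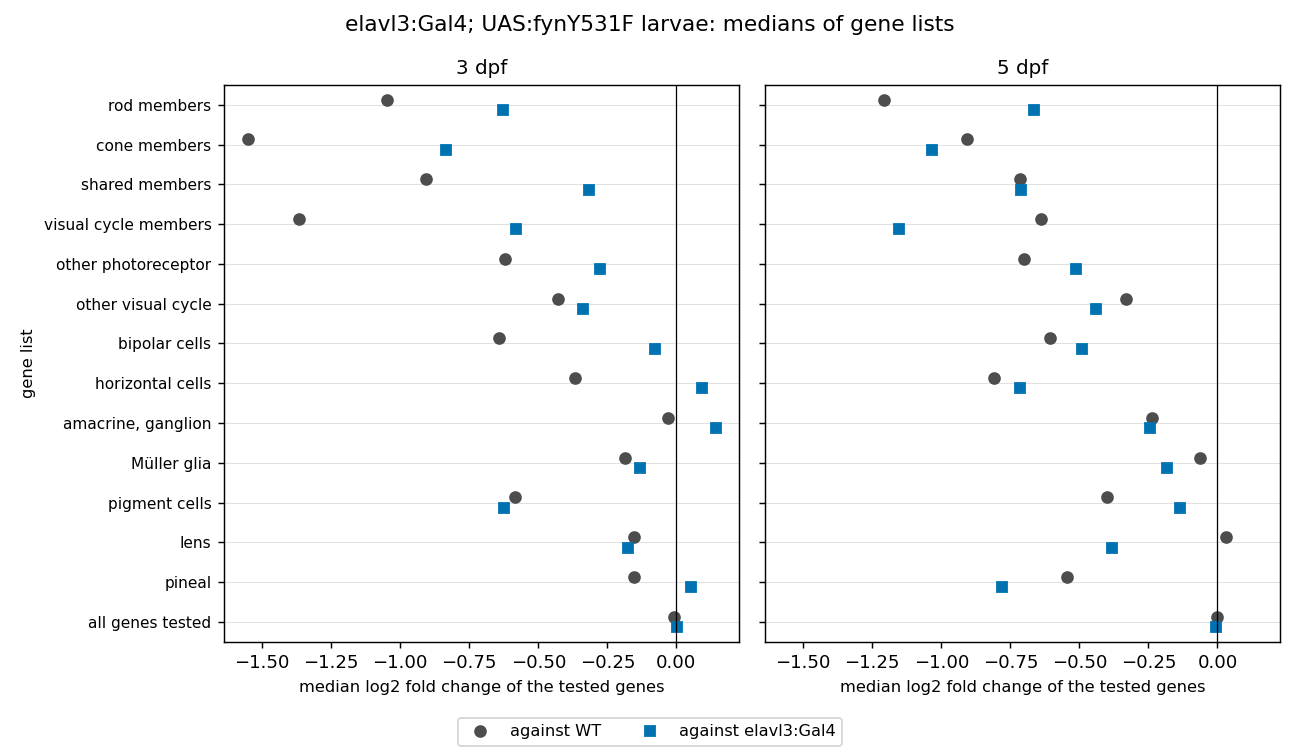
Each point is the median log2 fold change (horizontal axis) of the tested genes of a list in fynY531F larvae against WT (grey circles) or *elavl3:Gal4* larvae (blue squares), at 3 dpf (left) and 5 dpf (right). Against WT at 3 dpf, cone members lie farthest to the left of the lists drawn (clock, exocrine pancreas and other tissue lists are left out of the plot), at -1.55, with rod members at -1.05, while lens stands at -0.15 and all genes tested at -0.01. The Müller glia median against *elavl3:Gal4* at 5 dpf, -0.18, is 0.12 with library totals as the only scaling.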

How the data were processed

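RNA was extracted from pools of whole larvae, and poly(A) libraries were read in pairs by a service provider. The authors deposited raw read counts per gene in tables of 2 groups each, and the submitters' processing notes name HISAT2 2.0.5, StringTie 1.3.3b, featureCounts 1.5.0-p3 and GRCz11. The sources used here do not state whether counting used the strand. Counts of 9 tables were joined, and 1205864 entries shared between tables were compared, of which 0 differed. A gene dropped from every table of a library was given 0 counts (13752 entries). The 144 further columns of values for single samples, normalized by the authors, were not used, nor were 27 tables of subsets, and the columns of the authors' own fold changes and p-values were left aside.

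Groups were taken from the sample labels. Each comparison of 2 groups, and each interaction of genotype with age, was fitted to the counts of its own libraries (R 4.3.3, edgeR 4.0.16: filterByExpr, TMM, quasi-likelihood F-test, 2-sided, Benjamini-Hochberg over all genes tested, threshold 0.05), and standard errors were taken from the fold change and F. CPM were computed with TMM factors over all 24 libraries, and CPM per kb with the gene length in the tables. Since whole libraries had 11386498 to 30549128 counts, low counts limit the precision of scarce members. In counts simulated for these comparisons, 200 genes changed by 1.5 on the log2 scale, and the fit recovered 36.0% (fynY531F against *elavl3:Gal4*, 5 dpf) to 97.5% (WT, 5 against 3 dpf) of them. Of the calls, 2.80% (*elavl3:Gal4* against WT, 5 dpf) to 7.33% (the same at 3 dpf) were false. All other genes were left unchanged and genes were drawn independently, unlike in the data, so these shares need not hold there. DESeq2 1.42.0, 2 other scalings, no filter, a fit of all 6 groups, a block on replicate number and leaving out each library were tried as alternatives. Replicates were separate pools by their labels, and whether they came from separate clutches is not given. Figures were drawn with matplotlib 3.10.9.

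The members and gene lists were chosen with earlier results of these data known. Any member could be named, with values by library for the opsins, *gnat1*, *gnat2* and up to 4 called members with the largest change in each direction and comparison. Up to 3 called genes with the largest change were eligible from each other list. Promoters and proteins were not used here.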

Additional observations from a re-analysis of the deposited data

Results flagged for a closer look

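In groups of 4 libraries, the highest or lowest value of a member was set apart from the other 3 by Dixon's criterion in 12 of 246 groups, over 41 members, and chance alone sets apart about 1 in 20 groups. Replicate 3 of *elavl3:Gal4* at 5 dpf held 3 of them, all high, in *pde6ga* (9.09 CPM), *prph2b* (42.6 CPM) and *guk1b* (60.4 CPM). TMM factors raised these values. With library totals alone that library had 5.43, 25.5 and 36.1 CPM, and the next highest of its group 4.66, 20.7 and 22.1 CPM. WT replicate 1 at 5 dpf was low in *opn1sw2* (41.0 CPM) and *opn1mw2* (6.63 CPM) and stood apart in *cnga3a* (7.97 CPM). FynY531F replicate 1 at 5 dpf stood apart in *guca1c* (5.42 CPM), *cnga1* (3.13 CPM) and *rbp4l* (4.99 CPM). The others were *sagb* in fynY531F replicate 4 at 3 dpf (49.0 CPM, high) and in WT replicate 2 at 5 dpf (64.9 CPM, low), and *cnga1* in WT replicate 3 at 5 dpf (6.38 CPM).

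The change with age differed between genotypes in 13 interaction terms. Against *elavl3:Gal4*, *opn1mw2* (-1.86) and *grk7b* (-1.51) moved down in fynY531F larvae on the log2 scale. Against WT, *gngt2a* (2.42), *rpe65a* (1.96), *pde6c* (1.21), *rcvrn3* (1.03), *prph2b* (1.02), *arr3b* (0.89) and *saga* (0.84) moved up, and *opn1mw2* (-1.60), *crx* (-0.73), *pde6gb* (-0.66) and *pde6a* (-0.65) moved down.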

How the results depend on the processing

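The count of members called against WT moved little between settings at 3 dpf, and at 5 dpf it went from 33 to 19 with all 6 groups in one fit. That fit gave 16 for 28 in WT with age, 23 for 15 in *elavl3:Gal4* with age, 8 for 18 and 24 for 7 against *elavl3:Gal4* at 3 and 5 dpf, 0 for 4 between *elavl3:Gal4* and WT at 3 dpf, and 4 for 2 and 3 for 11 in the interactions against *elavl3:Gal4* and WT. DESeq2 called 20 for 7, 1 for 0 and 4 for 2 in fynY531F against *elavl3:Gal4* at 5 dpf, *elavl3:Gal4* against WT at 5 dpf and the interaction against *elavl3:Gal4*. With no filter, 8 members rather than 4 were called between *elavl3:Gal4* and WT at 3 dpf. The cause was not tested. The share of all genes called moved as well. In fynY531F against *elavl3:Gal4* at 5 dpf, 2.6% were called lower in the main fit, 13.7% with all 6 groups in one fit and 5.93% with DESeq2. With library totals as the only scaling, the median of all genes was -0.15 in WT, -0.19 in *elavl3:Gal4* and -0.10 in fynY531F larvae with age, 0.14 in fynY531F against *elavl3:Gal4* at 5 dpf and -0.11 in *elavl3:Gal4* against WT at 5 dpf. Of log2 fold changes called, 56 were not called in the fit of all 6 groups, 20 with library totals, 8 with DESeq2, 1 with DESeq2 size factors and 1 with no filter.

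Same-numbered replicates did not pair, since no comparison had every correlation of their deviations above 0.1. A block on replicate number gave 8 called members for 18 and 2 for 7 in fynY531F against *elavl3:Gal4* at 3 and 5 dpf and 1 for 4 in *elavl3:Gal4* against WT at 3 dpf, and 23 log2 fold changes were not called under it. In the same 3 comparisons the share of all genes called lower went from 9.73% to 6.96%, from 2.6% to 0.562% and from 2.97% to 1.27%.

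Leaving out 1 library moved the counts between 25 and 27 in WT, 6 and 23 in *elavl3:Gal4* and 24 and 28 in fynY531F larvae with age, between 8 and 29 and between 1 and 21 against *elavl3:Gal4* at 3 and 5 dpf, between 32 and 34 and between 26 and 34 against WT, between 0 and 13 and between 0 and 6 for *elavl3:Gal4* against WT, and between 0 and 6, 8 and 16, and 0 and 0 in the interactions against *elavl3:Gal4*, against WT and of *elavl3:Gal4* with WT. The share of all genes called lower in fynY531F against *elavl3:Gal4* at 5 dpf was 2.6% with *elavl3:Gal4* replicate 3 and 11% without it. For most other fits without 1 library, the share of all genes called is not given here. A total of 7 log2 values that were not called turned sign, 1 of them under 2 different libraries left out. They lay between -0.31 and 0.11 for *opn1sw2* in *elavl3:Gal4* against WT at 5 dpf, in the interaction against *elavl3:Gal4* between -0.43 and 0.013 for *rho*, -0.41 and 0.033 for *opn1sw1* and -0.47 and 0.019 for *opn1sw2*, in the interaction against WT between -0.047 and 0.27 for *rho* and -0.024 and 0.27 for *opn1lw2*, and between -0.076 and 0.36 for *gnat1* in the interaction of *elavl3:Gal4* with WT.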
